A study of Mus musculus with 12 samples.

Results

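The genes described here are 39 genes of DNA replication and mitosis, chosen by name as markers of dividing cells: 13 act in DNA replication, 24 act in mitosis, and Stmn1 and Hmgb2 fall in neither list. Earlier results of these data were known when the genes, the other gene lists and the promoter motifs were chosen. The shares of all genes set beside them therefore describe the lists and do not test them. The 39 genes were read in lower abdominal muscle on Illumina mouse bead arrays, which hybridise biotin-labelled cRNA to gene probes. The 12 arrays formed 3 groups of 4: AromhumH, AromhumL and wild type (WT). All samples came from male FVB/N mice aged 1 month, and no treatment is given. AromhumH and AromhumL are transgenic for human aromatase, the enzyme that turns androgens into oestrogens, with more human enzyme expressed in AromhumH and less in AromhumL. The sources used here name neither the promoter of the transgene nor any pooling of animals. The labels do not call the replicates separate animals, so each p-value rests on array-to-array spread that may be technical. Of the 39 genes, 29 could be measured among 10575 genes in all. A gene was measured if 1 of its probes had a detection p-value below 0.05 on at least 4 of 12 arrays. Ccnb1, the main cyclin of mitotic entry, and Tacc3, a spindle protein, had no named probe. Bub1, Ccna2, Ccnb2, Cks2, Kif20a and Racgap1 were detected on 0 arrays, Mcm3 on 3 arrays and Ube2c on 1 array, those 3 and that 1 being AromhumH arrays. This left 12 replication genes, 15 mitosis genes and both others.

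Cells copy their DNA in S phase and separate the copies in mitosis. The MCM helicase opens the helix, GINS proteins activate it, PCNA clamps the polymerases to the template, and ribonucleotide reductase, thymidylate synthase and thymidine kinase supply the nucleotides. At mitosis, CDK1, PLK1 and Aurora kinases drive entry and spindle assembly, the chromosomal passenger complex and the checkpoint proteins watch over attachment, and the ubiquitin ligase cofactor CDC20 triggers separation. Mature muscle fibres do not divide, and the cells that can divide in growing muscle include satellite cells, which fuse into fibres, and cells of connective tissue and vessels. Replication genes are classically switched on through E2F sites, and mitosis genes through a CCAAT box together with a CHR element.

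Promoters were searched because the members have known promoter elements and their values can be set beside them. The RefSeq table (build GRCm38.p6) holds 250 bases before to 50 bases after each start, and it matched 32 of the 39 genes. Mcm4, Gins1, Tpx2, Kif20a, Aurkb, Stmn1 and Ccna2 had no entry. Both strands were searched for CCAAT, for the CHR core TTTGAA, and for the E2F sites TTTCGCGC and TTTGGCGC, which can overlap each other when they face opposite ways. Of 20 mitosis genes with a promoter, 14 held both CCAAT and TTTGAA, against 1 of 11 replication genes, Mcm2, and 7.97% of all 27025 genes in the table. An E2F site stood in 5 of 11 replication genes (Mcm3, Mcm5, Mcm6, Mcm7 and Uhrf1), in 1 of 20 mitosis genes (Cdk1) and in 0.929% of all genes. A gene with several promoters counted once, as having the motif if any of them did. TTTGAA, with or without CCAAT, was in 1 of 11 replication genes and 14 of 20 mitosis genes, against 20.2% of all genes. CCAAT, with or without TTTGAA, was in 9 of 11 replication genes and 17 of 20 mitosis genes, against 41.1% of all genes. These matches describe the letters in this window and are not measured binding sites. The promoters of the 2 replication genes and 2 mitosis genes with the smallest p in AromhumH versus WT are printed 5′ to 3′, with matches in capitals. The Mcm5 promoter has 3 CCAAT matches and a pair of overlapping E2F matches, Cdca8 has 4 CCAAT matches on the reverse strand, 1 of them sharing a base with TTTGAA, Plk1 has 1 of each, and Tyms has none of these words.
Mcm5, chr8:75109259-75109558, plus strand: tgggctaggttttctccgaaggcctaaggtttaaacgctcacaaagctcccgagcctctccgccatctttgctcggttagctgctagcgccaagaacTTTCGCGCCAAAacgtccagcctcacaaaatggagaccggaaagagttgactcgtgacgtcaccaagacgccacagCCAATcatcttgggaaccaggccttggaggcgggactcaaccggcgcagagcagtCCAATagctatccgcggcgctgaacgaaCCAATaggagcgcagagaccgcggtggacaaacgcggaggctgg
Tyms, chr5:30073576-30073875, minus strand: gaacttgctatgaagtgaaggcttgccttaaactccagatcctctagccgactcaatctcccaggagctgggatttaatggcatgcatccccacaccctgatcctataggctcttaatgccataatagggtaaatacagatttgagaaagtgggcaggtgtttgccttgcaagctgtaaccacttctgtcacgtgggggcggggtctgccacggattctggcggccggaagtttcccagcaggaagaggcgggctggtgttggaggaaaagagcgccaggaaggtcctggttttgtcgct
Cdca8, chr4:124936868-124937167, minus strand: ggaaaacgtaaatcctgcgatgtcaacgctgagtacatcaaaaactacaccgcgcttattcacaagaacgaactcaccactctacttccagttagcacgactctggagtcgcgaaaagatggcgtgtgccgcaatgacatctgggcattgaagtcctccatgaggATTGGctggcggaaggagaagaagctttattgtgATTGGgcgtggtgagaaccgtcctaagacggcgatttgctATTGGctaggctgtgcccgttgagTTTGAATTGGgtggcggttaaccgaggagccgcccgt
Plk1, chr7:122159185-122159484, plus strand: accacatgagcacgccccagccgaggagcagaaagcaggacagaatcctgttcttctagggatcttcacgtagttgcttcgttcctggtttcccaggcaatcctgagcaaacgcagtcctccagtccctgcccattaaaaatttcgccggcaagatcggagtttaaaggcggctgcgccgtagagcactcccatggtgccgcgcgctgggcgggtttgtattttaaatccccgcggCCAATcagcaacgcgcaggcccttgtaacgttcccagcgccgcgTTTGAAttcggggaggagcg

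The arrays differed in ways that run beside the members. All 10 measured fibre markers, among them Acta1, Ckm and Myh4, were detected on 12 of 12 arrays. Mean raw intensity ran from 296.1 to 373.2 on AromhumH arrays, from 221.6 to 273.9 on AromhumL arrays and from 267.4 to 361.7 on WT arrays, with AromhumL 1 the dimmest. WT 1 and WT 2 lay at 267.4 and 282.6, and WT 3 and WT 4 at 359.8 and 361.7. Values below are log2 intensities after background correction and quantile normalization, and differences are log2 differences of group means. They come from limma fitted to all 12 arrays and 10575 genes, with Benjamini-Hochberg adjustment over all genes and a call at an adjusted p below 0.05.

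**Figure D1:**
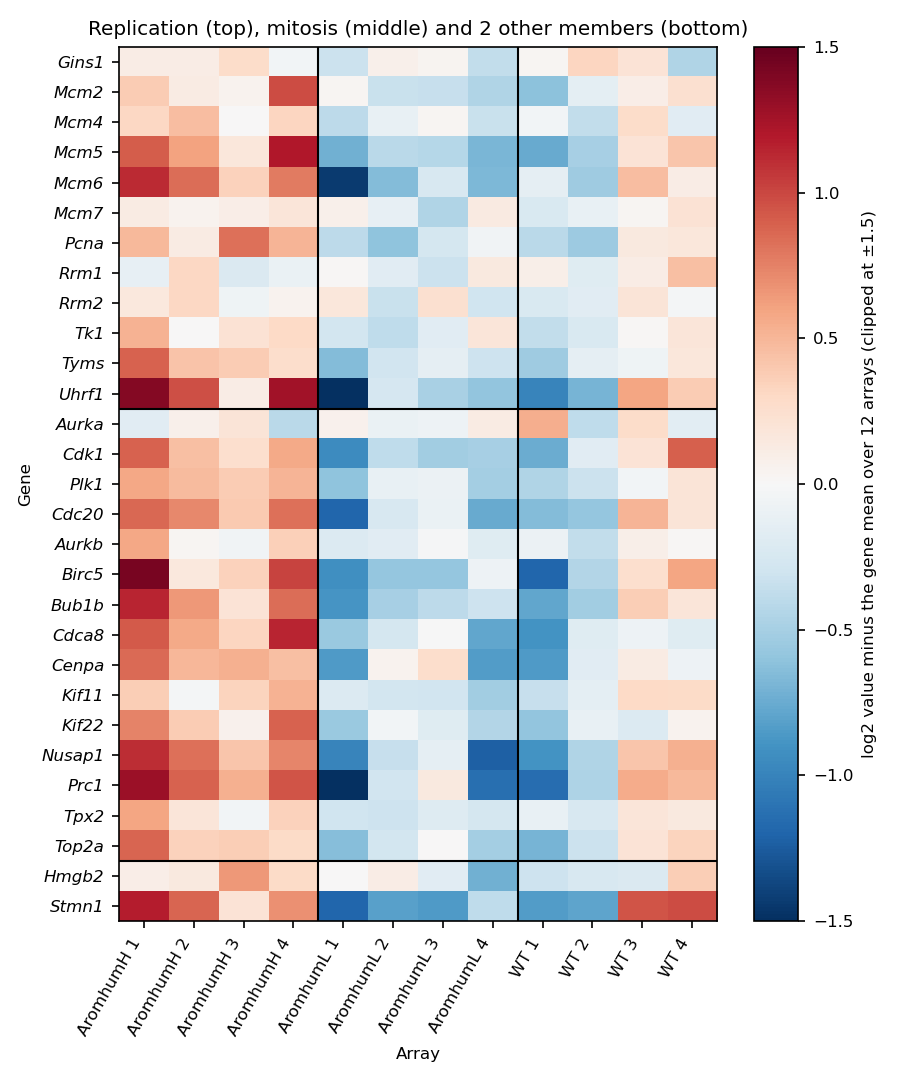
Log2 value of each of the 29 measured genes (rows) on each of the 12 arrays (columns), as the difference from that gene's mean over all arrays; red is above and blue below that mean. Most rows are red on the 4 AromhumH arrays, blue on the 4 AromhumL arrays, and blue on WT 1 and WT 2 but red on WT 3 and WT 4; Rrm1, Aurka and Gins1 follow this least. Colours are clipped at the ends of the scale.

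In AromhumH compared with WT, most members were higher, but a single one passed the test. Cdca8, which encodes borealin of the chromosomal passenger complex, rose 2.10-fold (log2 1.07, SE 0.221, adjusted p = 0.0338). Of the 29 members 27 had a log2 difference above 0, against 51% of all genes, and the median was 0.64, against 0.01 over all genes. At an unadjusted p below 0.05, 18 members were higher, against 10.1% of all genes. Called as higher were 0 of 12 replication genes and 1 of 15 mitosis genes, against 0.879% of all genes, and 0 members fell, against 0.303%. A bulk sample cannot tell more dividing cells from more of these transcripts per cell.

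Cdca8 had values of 6.37, 6.02, 5.77 and 6.60 on the AromhumH arrays, against 4.55, 5.27, 5.38 and 5.27 on the WT arrays. All AromhumH arrays lay above all WT arrays, with WT 1 apart below the other 3. The call was lost without WT 1 (adjusted p = 0.0898), WT 2 (0.0542), WT 4 (0.0593), AromhumH 1 (0.0803), AromhumH 2 (0.0763) or AromhumH 4 (0.107) in limma, and the number of called members ran from 0 to 4, 4 being the number without AromhumH 3. It was also lost with array brightness as a covariate (adjusted p = 0.0526), on the deposited processed values (0.0676) and without the detection filter (0.0934). Across all genes, 1.18% were called with all arrays, and the share ran from 0.0189% without AromhumH 2 to 2.99% without AromhumH 3.

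The 4 members next in order of p did not pass. Plk1, the kinase of mitotic entry and centrosome maturation, had values of 5.74, 5.63, 5.54 and 5.67 in AromhumH, against 4.71, 4.84, 5.12 and 5.35 in WT. Its log2 difference was 0.64 (SE 0.161, adjusted p = 0.0628 by limma), the groups did not overlap, and its AromhumH values lay close together (SD 0.08, against 0.28 in WT). Kif22, a chromosome-binding kinesin, stood at 7.24, 6.88, 6.56 and 7.38 in AromhumH and at 5.90, 6.38, 6.29 and 6.55 in WT (log2 0.74, SE 0.192, adjusted p = 0.0723 by limma). Its lowest AromhumH array and its highest WT array nearly met. Bub1b, the checkpoint kinase BubR1, had 6.44, 5.95, 5.50 and 6.14 in AromhumH and 4.52, 4.78, 5.67 and 5.48 in WT (log2 0.89, SE 0.246, adjusted p = 0.0866 by limma). AromhumH 3 lay below WT 3, and the other detected Bub1b probe stood at 0.10, so its probes disagree. Tyms, thymidylate synthase, had 6.06, 5.61, 5.56 and 5.44 in AromhumH and 4.64, 5.04, 5.11 and 5.35 in WT (log2 0.64, SE 0.175, adjusted p = 0.0867 by limma). Its groups did not overlap, and its other detected probe had a smaller difference of 0.25. In all, 5 of 29 members had AromhumH wholly above WT (Tyms, Cdca8, Cenpa, Plk1 and Kif22), against 5.34% of all genes.

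Replication genes ran from −0.15 to 1.11 in this comparison. Among helicase subunits the log2 difference of AromhumH over WT was 0.88 for Mcm5, 0.80 for Mcm6, 0.49 for Mcm2, 0.35 for Mcm4 and 0.14 for Mcm7, although these proteins work in 1 complex. The other detected Mcm6 probe stood at 0.41. Gins1, a helicase cofactor, stood at 0.09, and the clamp Pcna at 0.64. Of the nucleotide enzymes, Tyms stood at 0.64, Tk1 at 0.36, Rrm2 at 0.17 and Rrm1 at −0.15. The other Rrm1 probe stood at 0.25, so the sign of Rrm1 depends on the probe. Uhrf1, which guides maintenance DNA methylation behind the fork, had the highest difference of all members at 1.11 (SE 0.373, adjusted p = 0.152). The median over the 12 replication genes was 0.42.

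Mitosis genes had a median of 0.74 over 15. Centromere and checkpoint genes ran from 0.31 for Aurkb, the passenger complex kinase, through 0.82 for Cenpa, the centromeric histone, and 0.93 for Birc5, survivin, to 1.07 for Cdca8. The other Birc5 probes stood at 0.48 and 0.69. Spindle and cytokinesis genes ran from 0.27 for both Kif11, a spindle motor, and Tpx2, an Aurora A activator, to 0.88 for Nusap1, a spindle protein, and 1.05 for Prc1, which bundles the midzone microtubules. Cdc20 stood at 0.83, with its other probes at 0.79 and 0.47, Top2a, which untangles chromosomes, at 0.59, and Cdk1 at 0.49. Aurka, the centrosomal Aurora kinase, was the 1 mitosis gene below 0, at −0.15. Hmgb2, a chromatin protein of proliferating cells, stood at 0.40 and Stmn1, which destabilises microtubules, at 0.66. The difference between the medians of the lists was not tested.

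**Figure D2:**
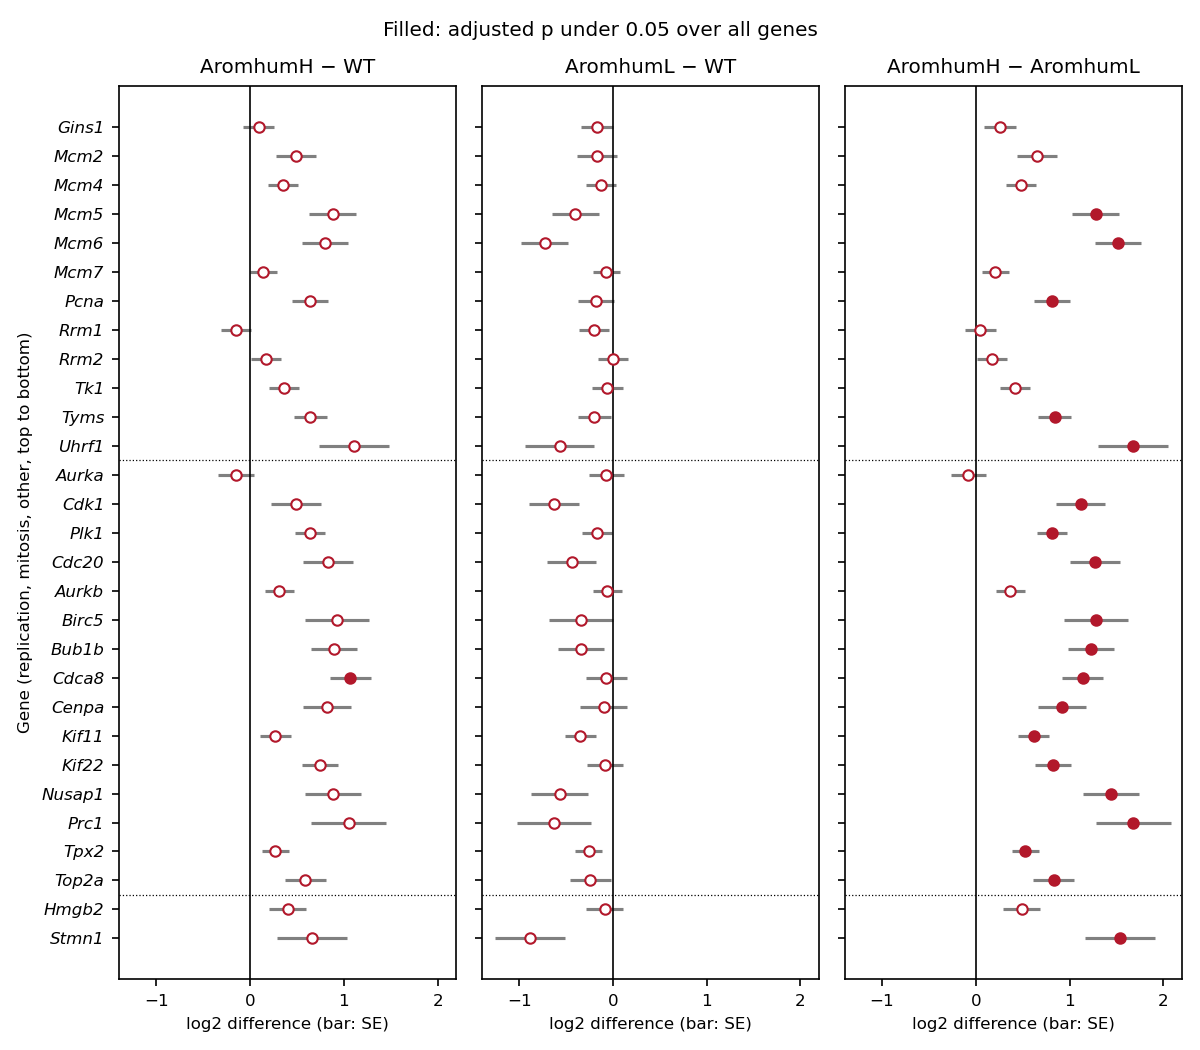
Log2 difference of group means for each of the 29 measured genes in AromhumH minus WT, AromhumL minus WT and AromhumH minus AromhumL; bars are SE from limma and filled points have an adjusted p below 0.05. Cdca8 is the single filled point against WT, and 19 points are filled between the lines; Kif11 and Tpx2 were not detected on any AromhumL array, so their points against AromhumL are fitted values at the floor.

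AromhumL muscle, compared with WT, had the opposite sign in nearly all members, and none passed the test. Of 29 members 28 were below 0 and 1, Rrm2, stood at 0.00, whereas 51.3% of all genes were above 0. The median was −0.17 over replication genes and −0.26 over mitosis genes, or −0.17 over mitosis genes with Kif11 and Tpx2 at their bounds, against 0.01 over all genes. Limma called 0 members and 0% of all genes, and at an unadjusted p below 0.05 there were 3 members lower and 0 higher, against 3.61% and 4.76% of all genes. No member had AromhumL wholly below WT, against 1.68% of all genes.

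Mcm6, a helicase subunit, had the smallest p, with values of 4.29, 5.07, 5.48 and 5.05 on AromhumL arrays, against 5.59, 5.19, 6.18 and 5.83 on WT arrays (log2 −0.73, SE 0.247, adjusted p = 0.584 by limma). AromhumL 3 lay above WT 2, so the groups overlapped. Cdk1, the kinase that starts mitosis, had 4.24, 4.80, 4.66 and 4.68 in AromhumL and 4.43, 5.01, 5.39 and 6.08 in WT (log2 −0.63, SE 0.263, adjusted p = 0.592). It was above background on 1 AromhumL array and on 3 WT arrays. Stmn1 had 4.57, 4.94, 4.91 and 5.38 in AromhumL and 4.92, 4.96, 6.70 and 6.73 in WT (log2 −0.88, SE 0.373, adjusted p = 0.592). WT 1 and WT 2 lay within the AromhumL range, and WT 3 and WT 4 far above it. Kif11 was not detected on any AromhumL array and was detected on 2 of the 4 WT arrays, and the groups overlapped. Set against the floor, its AromhumL level gave a bound of 1.03-fold lower than the WT mean. That mean takes in the WT arrays that did not detect it (fitted means 4.40 in AromhumL and 4.75 in WT, adjusted p = 0.592 by limma). Nusap1 had 4.98, 5.63, 5.84 and 4.75 in AromhumL and 5.07, 5.52, 6.39 and 6.50 in WT (log2 −0.57, SE 0.300, adjusted p = 0.605). Its higher WT values were again those of WT 3 and WT 4.

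The direction in part depended on whether array brightness was in the model. With the log2 mean intensity of each array as a covariate, the AromhumL minus WT median stood at 0.12 for mitosis genes and at 0.00 for replication genes. Of mitosis genes 11 of 15 turned above 0 and of replication genes 5 of 12, and 11 of all 29 members stayed below 0. Cenpa (0.39) and Birc5 (0.36) stood highest. Without the covariate their differences were −0.10 and −0.34.

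**Figure D3:**
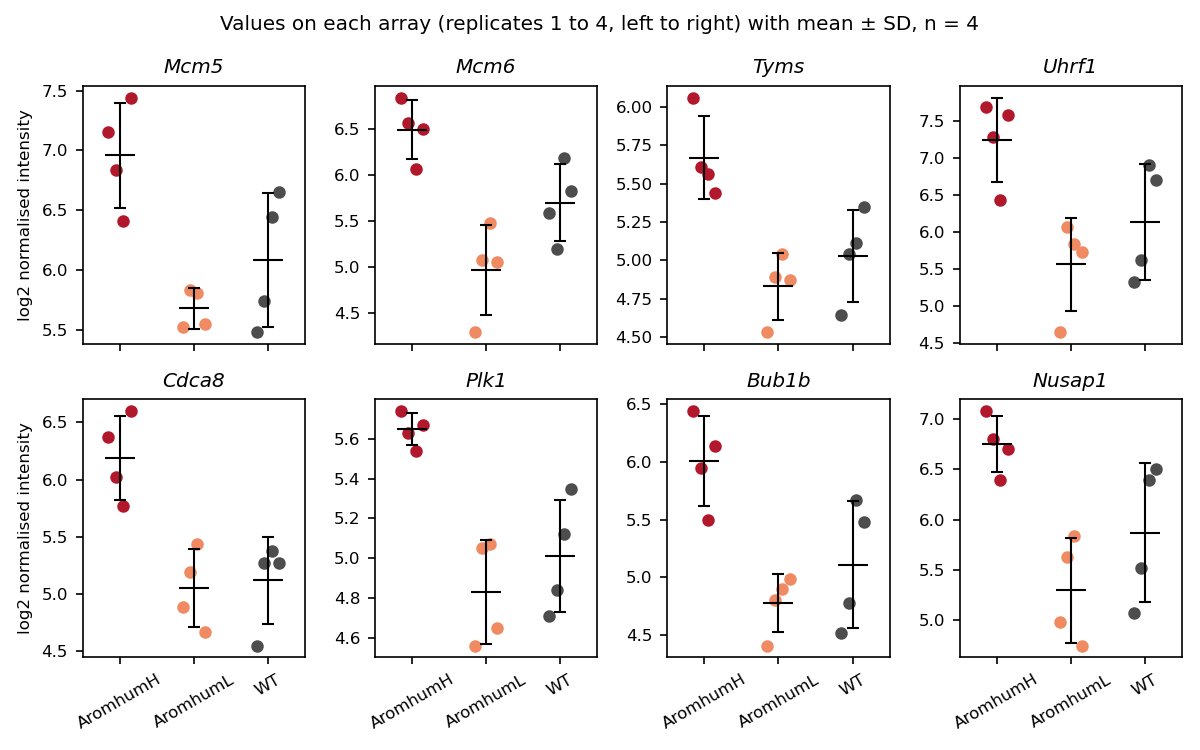
Log2 normalised intensity of 8 named genes on each array, for AromhumH, AromhumL and WT from left to right; points are arrays 1 to 4 and bars are the mean ± SD (n = 4). In every panel all AromhumH arrays lie above all AromhumL arrays. WT arrays spread across the gap, some within the AromhumL range, except for Cdca8, whose WT arrays all lie below the highest AromhumL array. Vertical scales differ between panels.

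AromhumH compared with AromhumL gave the members' main difference: 19 of 29 rose in AromhumH and 0 fell. They were 5 of 12 replication genes, 13 of 15 mitosis genes and Stmn1, against 4.02% of all genes called as higher and 2.01% as lower. Kif11 and Tpx2 among them passed the detection filter only through their AromhumH arrays, and 17 of the other 27 members rose. Of the 29 members 28 were above 0, Aurka being the exception at −0.08, against 49.5% of all genes. At an unadjusted p below 0.05, 24 were higher, against 13.4% of all genes. In 20 members AromhumH lay wholly above AromhumL, against 7.73% of all genes, and 26 had means in the order AromhumH, WT, AromhumL from high to low, against 22.3% of all genes. AromhumH was higher by a median log2 difference of 0.57 over replication genes and 0.92 over mitosis genes, against 0.00 over all genes.

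Mcm6 rose most firmly, at 6.84, 6.56, 6.07 and 6.50 on AromhumH arrays, against 4.29, 5.07, 5.48 and 5.05 on AromhumL arrays (2.87-fold, log2 1.52, SE 0.247, adjusted p = 0.00839 by limma). Its second detected probe had a difference of 0.82. Mcm5 had 7.15, 6.84, 6.41 and 7.44 in AromhumH and 5.52, 5.83, 5.81 and 5.55 in AromhumL, a rise of 2.43-fold (adjusted p = 0.0151 by limma). In both helicase genes the lines did not overlap, and the difference of their means was larger than the SD within either line. Uhrf1 rose 3.20-fold, with 7.70, 7.29, 6.44 and 7.58 in AromhumH and 4.65, 6.07, 5.84 and 5.73 in AromhumL (adjusted p = 0.0229 by limma). Tyms, with 4.53, 4.89, 5.04 and 4.87 in AromhumL, rose 1.79-fold (adjusted p = 0.0200), and Pcna rose 1.76-fold (adjusted p = 0.0278). For Tyms that is a log2 difference of 0.84 on the brightest probe, and its other detected probe had 0.42. The other 7 replication genes did not pass: Mcm2 stood at 0.65 (adjusted p = 0.0762), Mcm4 at 0.48 (0.0786) and Tk1 at 0.42 (0.126), and Gins1, Mcm7, Rrm2 and Rrm1 at 0.26 to 0.05.

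Among mitosis genes, Cdca8 rose 2.21-fold, with 4.89, 5.19, 5.44 and 4.67 on AromhumL arrays (adjusted p = 0.0151 by limma). Plk1 rose 1.76-fold, with 4.56, 5.05, 5.07 and 4.65 in AromhumL (adjusted p = 0.0160). Bub1b rose 2.35-fold on its brightest probe, with 4.41, 4.80, 4.90 and 4.99 in AromhumL (adjusted p = 0.0170), while its other probe stood at 0.01. The cofactor of chromosome separation also rose: Cdc20 had 6.77, 6.62, 6.30 and 6.73 in AromhumH and 4.72, 5.67, 5.80 and 5.15 in AromhumL, 2.41-fold (adjusted p = 0.0198). Nusap1, with 7.08, 6.80, 6.39 and 6.70 in AromhumH, rose 2.72-fold (adjusted p = 0.0196). Kif22, with 5.94, 6.46, 6.31 and 6.06 in AromhumL, rose 1.77-fold (adjusted p = 0.0261). In each of these genes the lowest AromhumH array lay above the highest AromhumL array. The largest fold among mitosis genes was that of Prc1 at 3.20 (adjusted p = 0.0278), with AromhumL values from 5.30 to 7.26. Birc5 rose 2.42-fold, Cdk1 2.17-fold, Cenpa 1.89-fold and Top2a 1.77-fold (adjusted p from 0.0266 to 0.0461 by limma). Kif11 and Tpx2 were not detected on any AromhumL array and were each at least 1.24-fold higher in AromhumH (adjusted p = 0.0415 and 0.0460). Stmn1 rose 2.91-fold (adjusted p = 0.0295), and Aurkb at 0.37 (0.150) and Hmgb2 at 0.49 (0.140) did not pass.

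The number of members called between the lines leaned on single arrays. It was 1 without AromhumL 1, and that gene was Mcm6 (adjusted p = 0.0324 by limma), 2 without AromhumH 4, 3 without AromhumH 1, 6 without AromhumH 2 and 7 without AromhumL 4. Calls over all genes also fell in these fits, to 0.605% without AromhumL 1, 0.917% without AromhumH 4, 1.09% without AromhumH 1 or AromhumH 2 and 1.37% without AromhumL 4, against 6.03% with all arrays. With array brightness as a covariate 0 members and 0 of all genes were called by limma. The median difference was then 0.33 over replication genes and 0.39 over mitosis genes. Brightness did not overlap between the lines, so this fit cannot tell line from brightness. The members called numbered 12 without background correction, 9 on the deposited processed values and 4 of 37 without the detection filter, where 4.67%, 3.29% and 1.10% of all genes were called. The filter also shaped the set: Kif11 and Tpx2 passed it only through their AromhumH arrays, and 17 of the other 27 members rose. Of the members detected on all 12 arrays, 2 of 7 replication genes and 6 of 7 mitosis genes rose.

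Array by array, replication and mitosis genes kept much the same order. The mean deviation of mitosis genes from each gene's 12-array mean was 0.80, 0.41, 0.28 and 0.60 on AromhumH 1 to 4, −0.71, −0.25, −0.14 and −0.53 on AromhumL 1 to 4, and −0.59, −0.32, 0.21 and 0.23 on WT 1 to 4. For replication genes it was 0.52, 0.36, 0.18 and 0.48 in AromhumH, −0.46, −0.30, −0.21 and −0.28 in AromhumL, and −0.35, −0.27, 0.19 and 0.14 in WT. Both lists were highest on AromhumH 1 and lowest on AromhumL 1. In WT, the 2 brighter arrays were the 2 higher ones. AromhumH 4, at a mean intensity of 296.1, had 0.60 for mitosis genes, against −0.32 on WT 2 at an intensity of 282.6. At the bright end, AromhumH 1 at 373.2 had 0.80, against 0.23 on WT 4 at 361.7. AromhumH 3 at 338.6 had 0.28, against 0.21 on WT 3 at 359.8. These pairs of arrays were not tested.

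**Figure D4:**
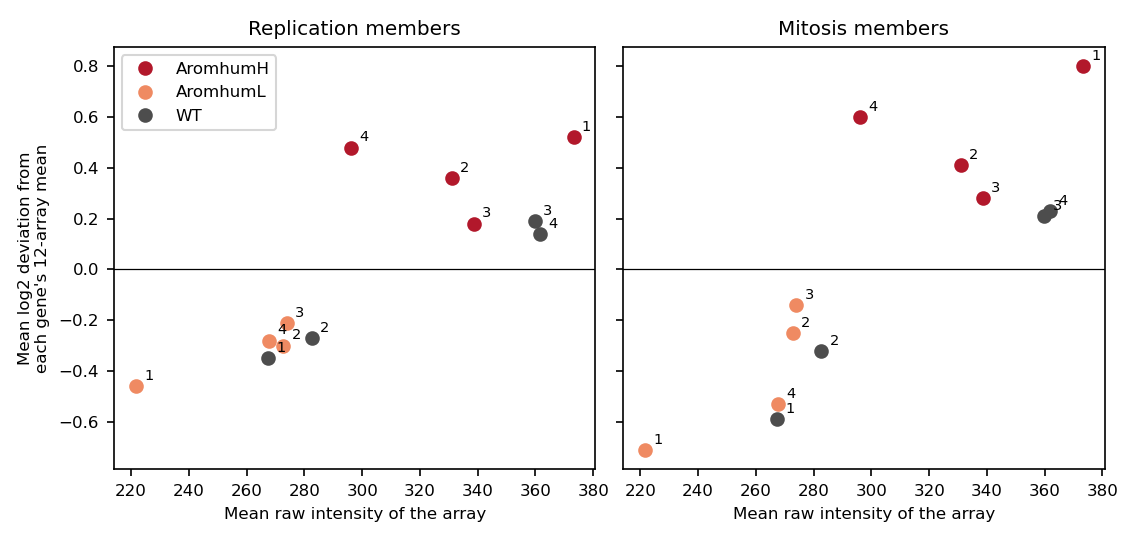
Mean log2 deviation of the 12 replication genes (left) and the 15 mitosis genes (right) from each gene's 12-array mean, plotted against the mean raw intensity of the array; numbers are replicates. The AromhumL arrays and WT 1 and WT 2 sit below 0 at intensities up to 282.6, and the AromhumH arrays and WT 3 and WT 4 sit above 0 from 296.1 upward.

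Other genes of the cycle moved in part. Of 30 measured other replication genes (40 listed), 1 rose in AromhumH versus WT, Lig1, the ligase that joins replicated fragments, at 1.93-fold (log2 0.95, SE 0.177, adjusted p = 0.0193 by limma). That call was lost without WT 1 (adjusted p = 0.0795), WT 4 (0.0513), AromhumH 2 (0.0727) or AromhumH 4 (0.0732), or without the detection filter (0.0581). The share of all genes called as higher was 0.879% there and 4.02% between the lines. The median over this list was 0.23. Between the lines Lig1 (log2 1.02), Cdt1, which loads the helicase (0.96), and Chaf1a, a histone chaperone subunit (0.55), rose, 3 of 30, with a median of 0.19. Of 25 other mitosis genes (49 listed) 0 passed against WT (median 0.34), with the smallest p for Cdca3, a cell cycle ubiquitin ligase cofactor (0.74, adjusted p = 0.0546 by limma). Between the lines 10 of 25 rose, against 4.02% of all genes (median 0.52), among them Pbk, a mitotic kinase (1.48), Anln, the cytokinesis scaffold anillin (1.24), Cdca2 (0.83) and Cdca3 (0.79). Some of the called genes were sparsely detected, with Espl1 and Chaf1a on 4 arrays each and Cdca2, Kif2c, Spc25 and Aspm on 6 each. Whether these genes passed the filter only through their AromhumH arrays was not tested. The counts of 10 of 25 and 3 of 30 include them and may depend on the filter.

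Regulators of the cycle, upstream of the members, had a median of 0.08 over 20 in AromhumH versus WT and 0.28 between the lines. None passed against WT, where the smallest p was that of the transcription factor E2f2 (0.74, adjusted p = 0.120). Between the lines Cdk2, the S phase kinase, rose (0.76, adjusted p = 0.0366 by limma). Cdkn2b, the inhibitor p15, fell by 0.58 on the log2 scale (adjusted p = 0.0322 by limma). That is 1 of 20 each way, near the 4.02% of all genes called as higher and 2.01% as lower between the lines. The other measured Cdkn inhibitors stood above 0 there and did not pass. They were Cdkn1c (1.15, adjusted p = 0.0532 by limma), Cdkn1a (0.31), Cdkn2c (0.27) and Cdkn2d (0.07). AromhumL versus WT had 0 calls in each of these lists, the smallest p being those of Rpa3 (−0.45), Spc25 (−0.47) and Ccne1 (−0.34), all at an adjusted p of 0.592.

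Markers of other cells moved beside the members. Of all genes, 0.879% were called as higher in AromhumH against WT and 4.02% between the lines. Mesothelial markers had a list mean of 0.56 to 1.40 on AromhumH arrays, −1.04 to 0.08 on AromhumL arrays and at most −0.19 on WT arrays, and 4 of 5 measured rose against WT and 4 between the lines. Within groups the order of arrays was in part that of the mitosis genes. AromhumL 1 was lowest in AromhumL and WT 4 highest in WT by both measures, whereas AromhumH 2 had the highest mesothelial mean and the third highest mitosis mean in AromhumH, and WT 3 had the lowest mesothelial mean in WT. Epithelial markers had a median array mean of 1.24 in AromhumH, −0.71 in AromhumL and −0.44 in WT, and 2 of 3 measured rose against WT and 3 between the lines. Those 2 were Krt8 and Krt18, and the epithelial markers Krt5 and Epcam were detected on 0 arrays. Fibroblast markers ran from 0.03 to 0.54 in AromhumH, −0.58 to 0.08 in AromhumL and −0.35 to 0.24 in WT, with 0 of 11 called against WT and 3 between the lines. Their order of arrays was that of the mitosis genes within AromhumL (−0.58, −0.20, 0.08 and −0.49 on AromhumL 1 to 4) and within WT (−0.35, −0.04, 0.02 and 0.24 on WT 1 to 4), and not within AromhumH (0.42, 0.54, 0.03 and 0.33 on AromhumH 1 to 4). For myoblast markers, 3 of 6 were measured and ran from 0.03 to 0.47 in AromhumH, −0.27 to −0.09 in AromhumL and −0.20 to 0.30 in WT. Of these Myog, a regulator of muscle cell differentiation and fusion, rose between the lines (log2 0.89, adjusted p = 0.0215 by limma). Pax7 and Myf5, the satellite cell regulators, were detected on 0 arrays. The other measured markers did not pass between the lines, with Cdh15 at 0.59 and Myod1 the other way at −0.32. Macrophage, endothelial, erythroid and adipocyte lists had 0 members called in any comparison by limma. The 4 measured erythroid markers had a median log2 difference of −0.69 in AromhumL versus WT, all 4 below 0. In AromhumH versus AromhumL it was 0.75, all 4 above 0, with 2 higher at an unadjusted p below 0.05, against 13.4% of all genes. In AromhumH versus WT that median was 0.07. AromhumH 1, the highest array for both member lists, also stood apart in adipocyte markers, at 1.88, with the lowest AromhumH array at −1.36. Lymphocyte markers had 0 of 6 members measured, Cd3e being detected on 1 array and Ms4a1 on 0. The part of any of these cells in the members' differences was not tested.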

How the data were processed

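RNA of lower abdominal muscle was extracted and labelled for Illumina arrays, per the labels' protocols. The deposited table holds, per the file headers, non-normalized intensity for each probe on each array. It gives a detection p-value beside each deposited intensity. The authors also deposited processed values per array. The values of those deposited columns look like log2 intensities with a shared distribution, but the transformation is not given in the sources used here.

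Of 45281 probes, 34885 had 1 gene symbol in the platform annotation, 18 several and 10378 none. Intensities were background-corrected and quantile-normalized with neqc of limma 3.58.1 (R 4.3.3, offset 16). The 19004 probes detected (p below 0.05) on 4 of 12 arrays were kept, and each gene was read from its brightest probe. A model of group means, lmFit with eBayes, took in all 12 arrays and 10575 genes (9 residual and 6.53 prior degrees of freedom). The number of arrays limits the precision (median SE 0.16). Where no array of a group detected a probe, its level there is a bound, set against the lowest detected value of each array. The fit was checked on simulated data. No pair of arrays held identical values.

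The members, gene lists and motifs were chosen with earlier results of these data known. Values on every array are given for the members past the threshold, up to 10 by smallest p, or where fewer than 5 passed for the 5 of smallest p; for other cell cycle lists up to 4 called genes are named, or the one of smallest p. The alternatives were the deposited processed values, no background correction, no detection filter, the mean of a gene's probes, a fit over all probes, the trend and robust options, 2 groups only, array brightness as a covariate, the replicate block and leaving out each array.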

Additional observations from a re-analysis of the deposited data

Results flagged for a closer look

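In 87 sets of 4 arrays (29 genes in 3 groups), 3 had 1 array apart from the other 3 by Dixon's test, and chance alone flags about 1 set in 20. Top2a stood at 5.98 on AromhumH 1, with the other AromhumH arrays from 5.39 to 5.47. Cdca8 stood at 4.55 on WT 1, with the other WT arrays from 5.27 to 5.38. Hmgb2 stood at 6.12 on WT 4, with the other WT arrays from 5.44 to 5.54. Without WT 1 the log2 difference of Cdca8 between AromhumH and WT was 0.88.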

How the results depend on the processing

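Called members in AromhumH versus WT numbered 0 with the authors' processed values, 0 without the filter on detection and 0 with array brightness as a covariate, against 1 with all arrays, and 0 to 4 on leaving out 1 array. In AromhumH versus AromhumL they numbered 9 on processed values, 12 without background correction, 4 without the filter and 0 with brightness, against 19, and 1 to 20 on leaving out 1 array. In AromhumL versus WT the count was 0 in every fit run. Medians of AromhumH versus WT were 0.13 (replication) and 0.21 (mitosis) on processed values, and 0.38 and 0.40 for mitosis genes without background correction and without the filter. Medians of AromhumH versus AromhumL were 0.17 and 0.27 on processed values, 0.31 and 0.50 without background correction, and 0.33 and 0.39 with brightness. The mitosis median of AromhumL versus WT was 0.12 with brightness. The causes were not tested. Brightness did not overlap between AromhumH and AromhumL, so their fit with it cannot tell line from brightness. The other 158 counts and medians stayed within the spread between arrays or within 1.5 times.

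The replicate numbers of the titles did not pair the arrays: deviations of same-numbered arrays correlated from −0.254 to 0.393, and 2 of 12 arrays matched best with their own number. With the replicate block, 1 member was called in AromhumH versus WT, which was Pcna (adjusted p = 0.0495 by limma) and not Cdca8 (0.0515), 0 in AromhumL versus WT and 16 in AromhumH versus AromhumL.

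Values of single genes changed sign 57 times, counted over genes, comparisons and fits. With brightness, AromhumL versus WT stood at 0.39 for Cenpa, 0.36 for Birc5, 0.33 for Prc1, 0.29 for Top2a, 0.26 for Uhrf1 and Anln, 0.21 for Cdk2, 0.19 for Bub1b, 0.17 for Tyms and Tk1, 0.16 for Lig1, 0.15 for Cdc20, 0.14 for Cdca8, 0.12 for Plk1, 0.10 for Aurkb and Kif22, 0.09 for Pcna and Nusap1, 0.07 for Cdca3, 0.02 for Stmn1, Chaf1a and Pbk, and 0.01 for Mcm4. AromhumH versus AromhumL stood at −0.04 for Rrm1 and −0.11 for Rpa3. With the mean of a gene's probes, Rrm1 stood at 0.05 (AromhumH versus WT) and E2f2 at −0.03 (AromhumL versus WT). On leaving out 1 array, AromhumL versus WT ran from −0.22 to 0.09 for Aurka, −0.10 to 0.24 for E2f2, −0.30 to 0.07 for Cenpa, −0.26 to 0.06 for Cdca8, −0.15 to 0.01 for Aurkb, −0.16 to 0.10 for Lig1, −0.14 to 0.04 for Cdca3, −0.14 to 0.06 for Mcm7, −0.17 to 0.03 for Tk1, −0.21 to 0.01 for Kif22, −0.20 to 0.08 for Hmgb2 and −0.47 to 0.02 for Anln. AromhumH versus WT ran from −0.30 to 0.01 for Aurka, −0.07 to 0.19 for Gins1 and −0.05 to 0.14 for Ccne1, and AromhumH versus AromhumL from −0.06 to 0.13 for Rrm1, −0.17 to 0.03 for Aurka and −0.07 to 0.17 for Rpa3.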
